A study of Mus musculus with 40 samples.

Results

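The circadian clock genes described here are 10 genes of the transcriptional clock, taken from the deposited table as the rows named Arntl, Per1, Per2, Per3, Cry1, Ciart, Nr1d1, Nr1d2, Dbp and Tef, out of 55539 listed features. All 10 were among the 15224 features with enough reads to test. Their RNA was measured by RNA sequencing of bulk tissue, the somatomotor cortex of the left hemisphere, from female mice aged 2 to 4 months of the 3xTg-AD strain. 3xTg-AD is a model of Alzheimer's disease with mutant human APP and MAPT transgenes, driven by a Thy1 promoter that is active mainly in neurons, and a mutant presenilin 1, and the sham-injured mice carry these alleles as well. Mild closed head injury (CHI) was given by weight drop to the intact skull under isoflurane, once a day. The groups were 1xCHI, 3xCHI and 5xCHI, each collected 30 min (n = 3), 4 h (n = 3, but n = 2 after 3xCHI, where sample 30 was left out) or 24 h (n = 4) after the last injury. The pre-injury samples of these series were sham-injured mice (n = 4), which had the anesthesia exposures without injury and were pooled over times, 2xCHI at 24 h (n = 3) and 4xCHI at 24 h (n = 3). This gave 39 samples in 12 groups. Values are CPM, read counts scaled to a common library size, that is, the share of a sample's reads that a gene received, with library sizes scaled by the trimmed mean of M values (TMM), and samples are named by their numbers in the series. The summed counts per sample ranged from 15926014 to 27859547 (median 19028778).

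The clock of mammalian cells is a feedback loop. ARNTL (also called BMAL1) pairs with CLOCK, binds E-box sequences and switches on the Per and Cry genes, whose proteins return to the nucleus and silence ARNTL and CLOCK. A second loop runs through the nuclear receptors NR1D1 and NR1D2 (REV-ERB alpha and beta), which repress Arntl, and an output layer of DBP and TEF carries the rhythm to D-box sequences of other genes. In mouse tissues the transcripts of Dbp, Per3, Ciart and Nr1d1 peak at about the opposite time of day from Arntl, which makes the balance between them a common sign of the hour at which a tissue was taken, and the cortex has such a rhythm as well. Per1 and Per2 have a further property: their transcripts are induced within an hour or so by neuronal activity, light and stress hormones. The comparison of 4 h with 30 min and 24 h was made because the time after injury can shift the hour of collection. If injuries were given at a fixed hour, samples at 30 min and 24 h would lie 0.5 h apart in the day and those at 4 h some hours later. The mice were kept in a 12 h light and 12 h dark cycle, but the hour of injury and of collection is not given in the sources used here, so time after injury and hour of the day cannot be told apart.

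A promoter window is shown for each gene with an E-box CACGTG or a D-box TTATGTAA, because the loops described above act through such elements. The second Tef entry, with an E-box 138 bases before its start, and Nr1d1, with only the E-box variant, are not printed. RefSeq promoter entries of GRCm38.p6 were matched by symbol for 9 of the 10 genes (all but Per2), with 12 entries in all, and the 250 bases before each transcription start were searched on both strands for 5 motifs. The E-box CACGTG, the site of ARNTL and CLOCK, was found in 5 of the 12 entries, of the genes Ciart, Per1, Cry1 and Tef (2 entries), and in 6.02% of 32851 promoter entries of all genes. Ciart held 3 copies, at 116, 58 and 44 bases before its start. The D-box TTATGTAA, the site of DBP and TEF, was found in Per3, where 2 copies stood 205 and 158 bases before the start, and in 0.819% of all entries. The E-box variant CACGTT was found in Cry1 and in Nr1d1 (28 bases before the start) and in 3.85% of all entries. The cAMP response element TGACGTCA (1.55% of all entries) and the core of the ROR element TAGGTCA (2.23%) were found in none of the 12 entries, which says only that these letters are not in these windows. A match is a description of the letters and not a measured binding site. The windows printed here are written 5' to 3' on the strand of the gene, with the E-box in capitals for Ciart, Per1 and Tef, the E-box and the variant on the opposite strand for Cry1, and the D-box for Per3.
Ciart, chr3:95882259-95882358, minus strand: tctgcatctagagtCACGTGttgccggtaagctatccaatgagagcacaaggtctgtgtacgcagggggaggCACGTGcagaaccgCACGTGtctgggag
Per1, chr11:69098749-69098808, plus strand: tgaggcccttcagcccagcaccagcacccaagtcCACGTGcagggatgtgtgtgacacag
Cry1, chr10:85185095-85185154, minus strand: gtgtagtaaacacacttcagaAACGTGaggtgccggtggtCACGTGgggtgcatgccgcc
Tef, chr15:81802523-81802572, plus strand: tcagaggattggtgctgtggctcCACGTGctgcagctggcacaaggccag
Per3, chr4:151044806-151044885, minus strand: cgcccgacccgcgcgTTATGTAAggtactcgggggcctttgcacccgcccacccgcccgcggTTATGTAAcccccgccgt

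All 10 genes were expressed in every sample. Levels of different genes are compared as CPM per kilobase of exon (GENCODE M21 exons on GRCm38), as mean ± SD over 39 samples. The output factor Tef was highest at 45.3 ± 5.52, followed by the repressor Nr1d1 at 35.2 ± 4.75, Dbp at 31.6 ± 5.37, Nr1d2 at 26.3 ± 2.86 and Per1 at 18.0 ± 5.27. A lower tier held Per2 at 7.16 ± 1.93, Per3 at 6.71 ± 1.30, Ciart at 6.50 ± 1.55, Cry1 at 5.30 ± 0.748 and Arntl at 4.19 ± 0.565. The step between the tiers was found in each sample, since Per1 lay above Per2 in 39 of 39. Neighbours within the tiers overlapped: Nr1d1 lay above Dbp in 30 of 39 samples, Per2 above Per3 in 26 and Per3 above Ciart in 23, so the order of these neighbours is within their spread. The other steps held in 32 samples (Ciart above Cry1) to 38 samples (Tef above Nr1d1) of 39. Exons of Nr1d1 share 263 bases with Thra, those of Dbp 539 bases with Sphk2, those of Tef 193 and those of Arntl 33 bases with annotated genes on the opposite strand. Whether the counting used strand is not given in the sources used here, so reads from such overlaps cannot be told apart.

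**Figure D1:**
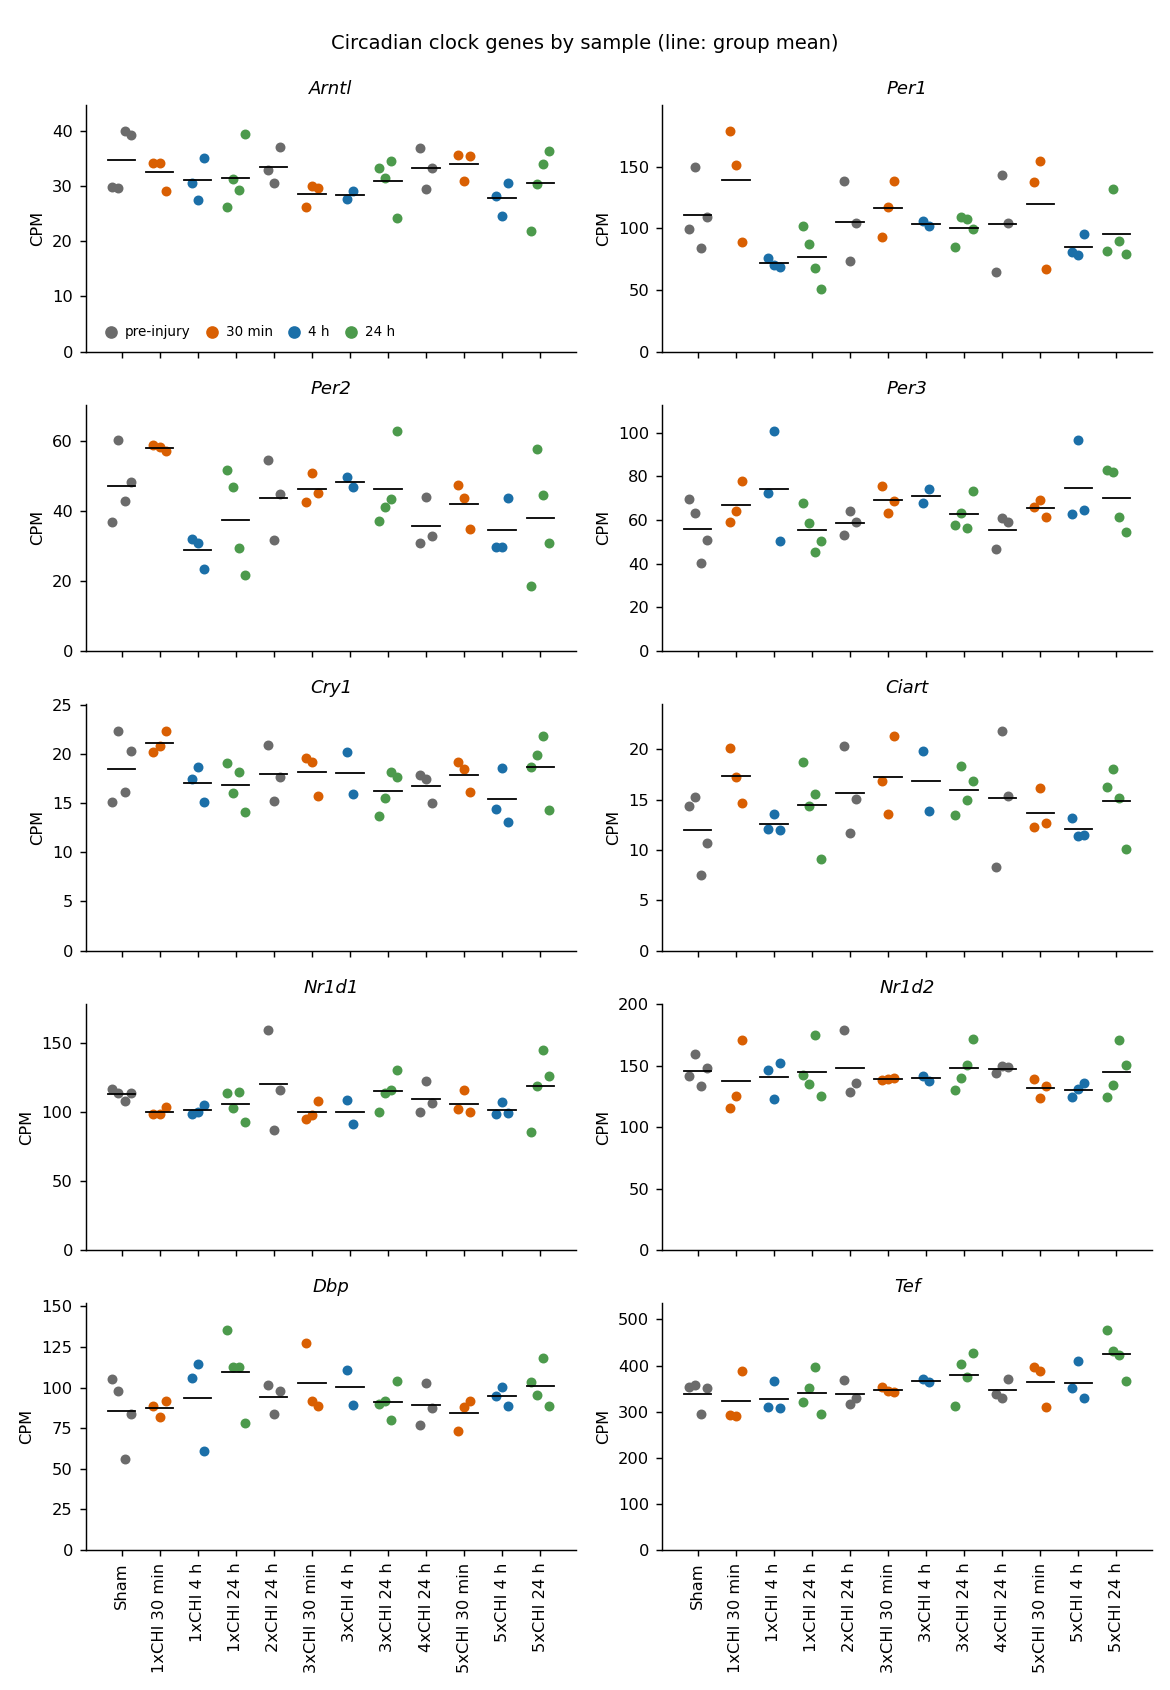
CPM of the 10 clock genes (vertical axes, from 0) in each of 39 samples, ordered by group on the horizontal axis; points are samples, coloured by time after injury, and black lines are group means. Per1 and Per2 at 4 h after 1xCHI lie below all 1xCHI samples at 30 min, while the samples at 4 h overlap those at 24 h for each gene and injury number.

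Per1 (ENSMUSG00000020893, chr11:69095217-69109960, GRCm38) and Per2 (ENSMUSG00000055866, chr1:91415982-91459324), the period genes that neuronal activity also induces, had the largest differences among the 10 genes at 4 h against 30 min. After 1xCHI, Per1 stood at 178, 151 and 88.6 CPM at 30 min (samples 13, 14 and 27) and at 75.8, 70.3 and 68.6 CPM at 4 h. At 24 h it was 102, 86.9, 67.9 and 50.7 CPM, and in sham-injured mice 99.1, 150, 84.2 and 109 CPM. These 4 h samples lay below each sample at 30 min, as did 3.13% of all features, and within the range at 24 h. After 5xCHI the values were 137, 155 and 67.3 CPM at 30 min against 81.1, 78.7 and 95.7 CPM at 4 h, and after 3xCHI 92.9, 117 and 139 CPM against 105 and 101 CPM. In these series the time points overlapped, with sample 31 the low sample at 30 min after 5xCHI.

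Averaged over the 3 injury numbers, Per1 was different by -0.54 on the log2 scale at 4 h against 30 min (95% confidence interval -0.90 to -0.18, or 0.687 times the level), with an unadjusted p of 0.00479 in edgeR's quasi-likelihood test and 0.707 after Benjamini-Hochberg adjustment over all 15224 features. The difference between 4 h and 24 h was -0.07 (-0.41 to 0.27, adjusted p = 0.993 in edgeR). Between 30 min and 24 h it was 0.47 (0.15 to 0.79, unadjusted p = 0.00583 and adjusted p = 0.407 in edgeR). Per1 did not pass the test in any of these comparisons. Its mean was 125 ± 36.2 CPM (SD, n = 9) at 30 min, 84.6 ± 14.3 (n = 8) at 4 h and 90.9 ± 21.0 (n = 12) at 24 h. Before injury it was 107 ± 29.1 CPM (n = 10), between 30 min and the later times, and all ranges overlapped. The Per1 difference of 24 h from pre-injury was -0.24 (-0.55 to 0.08, adjusted p = 0.990 in edgeR), and that of 30 min from pre-injury was not tested.

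Per2 values after 1xCHI were 58.6, 58.3 and 57.1 CPM at 30 min, 31.8, 30.9 and 23.5 CPM at 4 h, and 51.6, 46.9, 29.3 and 21.8 CPM at 24 h. The time points 30 min and 4 h did not overlap, and the 24 h samples spread over more than the range of the 4 h samples. After 3xCHI the values at 4 h, 49.6 and 46.6 CPM, lay among those at 30 min (42.4, 50.7 and 45.1 CPM), and after 5xCHI the values were 29.7, 29.7 and 43.7 CPM against 47.4, 43.7 and 34.7 CPM. The averaged difference of 4 h from 30 min was -0.41 (-0.78 to -0.05, unadjusted p = 0.0265, adjusted p = 0.987 in edgeR), and that of 4 h from 24 h was -0.15 (-0.49 to 0.19, adjusted p = 0.993 in edgeR).

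For the full comparison of 4 h with the mean of 30 min and 24 h, 0 of the 10 genes passed at an adjusted p under 0.05, and the same held for 0% of all features. DESeq2 called 0 of the 10 genes and 1 feature at an adjusted p under 0.05. At an unadjusted p under 0.05 the counts in edgeR were 0 of the 10 genes and 484 features, or 3.18% of all. That count of genes ranged from 0 to 2 over the other settings and over leaving out single samples. It was 2, Per1 and Per2, without a filter on low counts, with all 40 samples, and without sample 28 or 32. It was 1, Per1, in DESeq2 (unadjusted p = 0.0415), with a term for sample numbers 1 to 18 against 19 to 40 (unadjusted p = 0.0297, edgeR), with sample number as a covariate (unadjusted p = 0.0352, edgeR) and with only the 9 groups of 1xCHI, 3xCHI and 5xCHI. The differences on the log2 scale were -0.31 for Per1 (95% confidence interval -0.62 to 0.01), -0.28 for Per2 (-0.60 to 0.03), 0.18 for Per3 (-0.04 to 0.39) and -0.19 for Ciart (-0.48 to 0.11). Single samples moved the smaller of these: Per3 was 0.08 without sample 16 and 0.25 without sample 36 (0.11 with the term for sample numbers), and Ciart was -0.28 without sample 1 and -0.11 without sample 3. For the other genes they were -0.11 for Cry1 (-0.28 to 0.07), -0.11 for Arntl (-0.28 to 0.06), -0.09 for Nr1d1 (-0.25 to 0.07), -0.04 for Nr1d2 (-0.19 to 0.10), -0.04 for Tef (-0.17 to 0.10) and 0.01 for Dbp (-0.21 to 0.22). Dbp, whose transcript has one of the wider daily ranges in mouse tissues, thus had an interval from 0.865 to 1.17 times the level of the other time points. The median size of the difference, regardless of sign, was 0.11 over the 10 genes and 0.05 over all features tested. A missed threshold does not show that the genes were alike at the 3 times, and the widest of the 10 intervals reached 0.32 to either side of its estimate.

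Taken by pairs of times, 0 of the 10 genes passed at 4 h against 30 min (0.00657% of all features passed), 0 at 4 h against 24 h (0.00657%) and 0 at 30 min against 24 h (0.145%). DESeq2 called 24, 1 and 52 features in these comparisons and 0 of the 10 genes. At an unadjusted p under 0.05 in edgeR there were 2 of the 10 at 4 h against 30 min (Per1 and Per2, 4.51% of all features), 0 at 4 h against 24 h (3.44%) and 2 at 30 min against 24 h (Per1 and Tef, 10.5%). Leaving out single samples moved these counts to 1 to 3, 0 to 2 and 1 to 3. For Tef (ENSMUSG00000022389, chr15:81802421-81826863), the difference of 30 min from 24 h was -0.14 (SE 0.07, unadjusted p = 0.0494, adjusted p = 0.474 in edgeR). Its 24 h samples were spread from 295 to 478 CPM (median 386) against 290 to 396 CPM (median 344) at 30 min. At 4 h against 24 h, 9 of the 10 genes had differences below 0, and Per3 had 0.23 (-0.01 to 0.47, unadjusted p = 0.0569, adjusted p = 0.993 in edgeR).

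**Figure D2:**
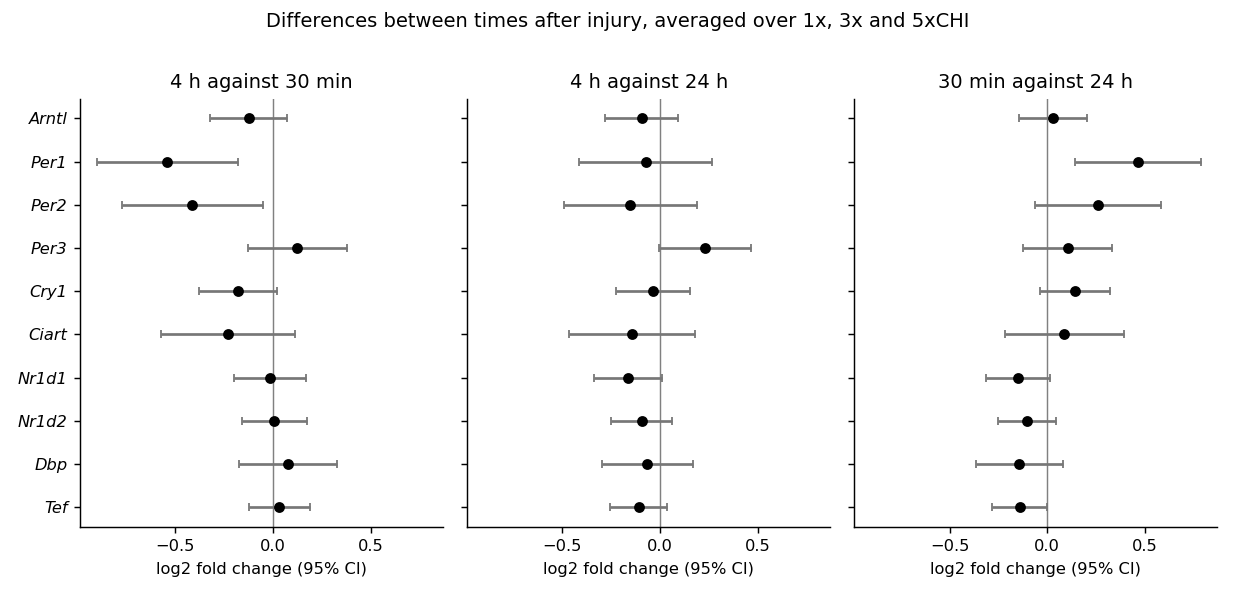
Log2 fold change of each clock gene (points) with its 95% confidence interval (bars) for 4 h against 30 min, 4 h against 24 h and 30 min against 24 h, averaged over 1xCHI, 3xCHI and 5xCHI. Per1 lies at -0.54 in the first panel and 0.47 in the third, and no gene passed the adjusted threshold in any panel.

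The 2 nuclear receptor genes and Dbp had smaller differences between 4 h and 30 min than Per1 and Per2, from -0.02 to 0.08 on the log2 scale, and a test of that contrast between genes was not run. Nr1d1 (ENSMUSG00000020889, chr11:98767932-98775333), which represses Arntl, ranged from 94.7 to 116 CPM (median 99.8) at 30 min, from 91.4 to 109 CPM (median 99.8) at 4 h, from 85.5 to 145 CPM (median 114) at 24 h and from 86.9 to 159 CPM (median 114) before injury. The 4 h samples lay within the range at 24 h, and the difference of 4 h from 24 h was -0.16 on the log2 scale (-0.34 to 0.01, unadjusted p = 0.0636, adjusted p = 0.993 in edgeR). Nr1d2 (ENSMUSG00000021775, chr14:18204054-18239127), its paralog, ranged from 116 to 171 CPM at 30 min, from 123 to 153 CPM at 4 h and from 125 to 175 CPM at 24 h, with medians of 138, 137 and 141 CPM. Dbp (ENSMUSG00000059824, chr7:45705088-45710203), the output factor, ranged from 73.3 to 128 CPM (median 88.5) at 30 min, from 61.0 to 114 CPM (median 97.6) at 4 h and from 78.1 to 136 CPM (median 99.2) at 24 h. All 3 times overlapped for each of these genes. The lowest Dbp at 4 h was sample 36 after 1xCHI, at 61.0 CPM against 106 and 114 CPM in the other samples of its group, and Per3 in that sample was 50.2 CPM against 72.3 and 101 CPM.

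The same difference was taken within each injury number. After 1xCHI the 4 h difference from 30 min and 24 h was -0.53 for Per1 (-1.05 to -0.01, unadjusted p = 0.0460, adjusted p = 0.782 in edgeR) and -0.70 for Per2 (-1.22 to -0.17, unadjusted p = 0.0112, adjusted p = 0.552 in edgeR). After 3xCHI it was -0.06 for Per1 and 0.06 for Per2, and after 5xCHI -0.33 and -0.21. The direction for Per2 after 3xCHI rested on leaving out sample 30, since it was -0.16 with all 40 samples. Per1 after 3xCHI was -0.17 with all 40 samples and -0.19 with either term for sample number, and 0.01 without sample 22. After 5xCHI, Per2 ran from -0.42 without sample 32 to -0.08 without sample 12, and Per1 from -0.47 without sample 31 to -0.22 without sample 8. None of the 10 genes passed after 1xCHI, 3xCHI or 5xCHI, where 0% of all features passed, and at an unadjusted p under 0.05 in edgeR there were 2, 0 and 0 of the 10 against 6.35%, 1.81% and 3.39% of all features. DESeq2 called 16, 0 and 2 features and 0 of the 10 genes. The difference between the injury numbers was itself tested and passed for 0 of the 10 genes and 0% of features, with 0 of the 10 and 3.82% at an unadjusted p under 0.05 in edgeR and 2 features in DESeq2. Its unadjusted p was 0.474 for Per1 and 0.142 for Per2, so these genes are not shown to differ between 1xCHI and repeated injury.

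By ranges alone, Per1, Per2, Cry1 and Ciart at 4 h after 1xCHI lay below 30 min without overlap. These were 4 of the 10 genes against 3.13% of all features (6.81% in either direction). Cry1 (ENSMUSG00000020038, chr10:85131700-85185064), the partner of the period proteins in repression, stood at 20.2, 20.8 and 22.4 CPM at 30 min and at 17.4, 18.6 and 15.1 CPM at 4 h. Ciart (ENSMUSG00000038550, chr3:95878503-95882251), a repressor of ARNTL and CLOCK, stood at 20.1, 17.3 and 14.7 CPM and at 12.1, 13.6 and 12.0 CPM. After 3xCHI, Tef at 4 h (370 and 365 CPM) lay above 30 min (353, 344 and 344 CPM), with 2 samples against 3. This was 1 of the 10 genes against 8.26% of all features (17.2% in either direction). After 5xCHI, Arntl (ENSMUSG00000055116, chr7:113207465-113314126) at 4 h (28.2, 24.6 and 30.5 CPM) lay below 30 min (35.6, 30.9 and 35.4 CPM). This was 1 of the 10 against 4.11% (8.48% in either direction). The counts after 3xCHI and 5xCHI were thus not above what the features as a whole would give for 10 genes by more than a fraction of 1 gene. Against 24 h, 0 of the 10 genes stood apart in either direction after 1xCHI, 3xCHI or 5xCHI, where 3.57%, 19% and 2.65% of all features did.

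Immediate early genes, transcription factors and signalling genes that neurons switch on within minutes of activity, are given beside Per1 and Per2. Of 10 such genes, 6 were higher at 30 min than at 24 h (Fos, Fosb, Junb, Npas4, Nr4a1 and Dusp1), against 0.145% of all features. At 4 h 1, Fosb, was lower than at 30 min (-2.88 on the log2 scale, adjusted p = 0.0241 in edgeR), against 0.00657%. Leaving out single samples moved these calls: 0 features passed at 4 h against 30 min when any of samples 1, 3, 4, 8, 9, 14, 15, 22, 32 or 36 was left out, and 4 features in all passed at 30 min against 24 h without sample 8. Against the pre-injury samples, 10 of the 10 were lower at 4 h (median -0.75 on the log2 scale). Of these, 6 had an unadjusted p under 0.05 in edgeR, against 11.3% of all features. At 24 h 10 of the 10 were lower as well (median -0.68), with 6 against 3.84%, and none passed after adjustment. The difference of 30 min from pre-injury was not tested. The summed level of the 10 genes ranged from 499 to 3196 CPM (median 1412) at 30 min and from 363 to 643 CPM (median 480) at 4 h. It ranged from 247 to 672 CPM (median 524) at 24 h and from 412 to 1778 CPM (median 829) before injury. Sample 27, the 30 min sample of 1xCHI with the lowest Per1, also had the lowest summed level at 30 min (499 CPM), and sample 31, the 5xCHI sample with the lowest Per1 there, had the second lowest (653 CPM). Among the pre-injury samples, those with the most Per1 (sample 20 of the sham-injured mice, 150 CPM, and sample 25 of 4xCHI, 143 CPM) had summed levels of 1646 and 1778 CPM. Other samples did not follow this order. Sample 4 had the lowest Per1 of 3xCHI at 30 min (92.9 CPM) with a sum of 2291 CPM. Sample 12 (5xCHI at 24 h) had 132 CPM of Per1 with a sum of 474 CPM. Per2 in sample 27 was 57.1 CPM, close to samples 13 and 14. By injury number, the median difference of the 10 immediate early genes at 4 h against 30 min and 24 h was -0.50 on the log2 scale after 1xCHI (0 of 10 at an unadjusted p under 0.05 in edgeR), where Per1 and Per2 were at -0.53 and -0.70. It was -1.17 after 3xCHI (4 of 10), where Per1 and Per2 were at -0.06 and 0.06, and -0.93 after 5xCHI (1 of 10). None of these genes passed after adjustment within an injury number.

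Over the 39 samples, log2 Per1 followed the log2 sum of the immediate early genes with r = 0.67 (Spearman's rho = 0.65), with r = 0.68 once group means were removed, and with r = 0.62 without the 2 samples farthest from the median sum. For Per2 the values were r = 0.47, rho = 0.48, r = 0.43 within groups and r = 0.52 without 2 samples, and for Ciart r = 0.42. Ciart had r = 0.53 within groups. Nr1d1 had r = 0.19, and 0.48 within groups. The other genes had r = 0.26 (Cry1), 0.14 (Arntl), 0.02 (Nr1d2), -0.03 (Dbp), -0.11 (Per3) and -0.27 (Tef). Some of these held opposite values within samples 1 to 18 and 19 to 40. They were 0.47 and -0.21 for Arntl, -0.31 and 0.13 for Per3, -0.17 and 0.13 for Dbp, and -0.15 and 0.08 for Nr1d2. These are descriptions over samples that share the tissue, the sequencing and the scaling, and the part of the immediate early response in the Per1 and Per2 values was not tested. In bulk tissue, fewer cells of a type and less RNA per cell cannot be told apart.

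**Figure D3:**
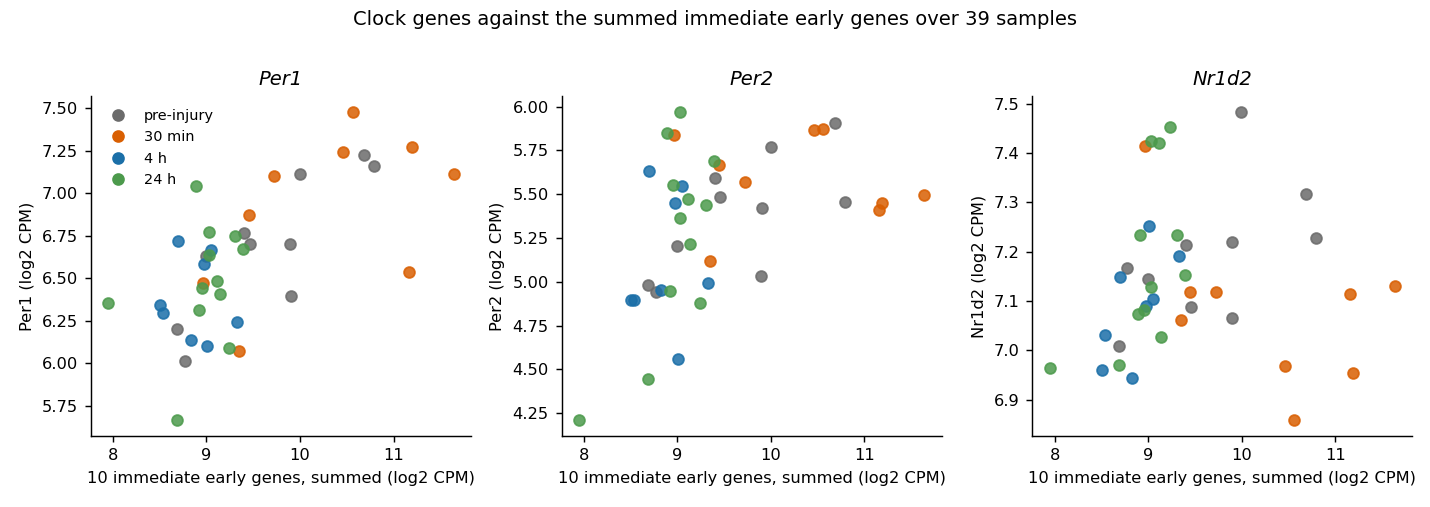
Log2 CPM of Per1, Per2 and Nr1d2 (vertical axes) against the log2 summed CPM of 10 immediate early genes (horizontal axes) in 39 samples, coloured by time after injury. Per1 is higher where the sum is higher (r = 0.67), while Nr1d2 has no such slope (r = 0.02).

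Genes that glucocorticoids induce were also followed, because stress hormones act on the Per genes. Of 10, 0 passed in the comparison of 4 h with 30 min and 24 h (unadjusted p under 0.05 in edgeR for Fkbp5 and Mt2, both higher at 4 h, by 0.60 and 0.57 on the log2 scale, adjusted p = 1.00 in edgeR). Differences of 4 h from 24 h were above 0 for 10 of 10 (median 0.22, 3 with an unadjusted p under 0.05 in edgeR). Those of 30 min from 24 h were above 0 for 9 (median 0.17, 3 with such a p). Against pre-injury, 8 were above 0 at 4 h (median 0.23, 4 with such a p) and 5 at 24 h. At 4 h against 30 min, 4 were above 0 and 6 below. None of these passed after adjustment. Their summed level ranged from 487 to 829 CPM (median 644) at 4 h and from 444 to 746 CPM (median 626) at 30 min. It ranged from 383 to 1474 CPM (median 461) at 24 h, where sample 11 was highest and the next 704 CPM. Before injury it ranged from 386 to 570 CPM (median 466). Over the 39 samples Per3, the period gene with the D-box copies shown above, had r = 0.63 with this sum (rho = 0.61, 0.51 within groups, 0.58 without the 2 samples farthest from the median sum). Arntl had r = -0.52 (rho = -0.41), which was -0.28 without those 2 samples. Per1 had r = 0.27, which was 0.50 without them, and 0.02 and 0.53 within samples 1 to 18 and 19 to 40. Per2 had r = -0.08, which was 0.37 without them, and -0.43 and 0.41 within the divisions. The cold-inducible genes Cirbp and Rbm3, which follow body temperature, did not pass in any of the comparisons between times. Their sum had r = 0.56 with Tef (0.38 without 2 samples), r = 0.48 with Dbp (0.12 within samples 1 to 18 and 0.79 within samples 19 to 40) and r = -0.52 with Arntl (-0.31 without 2 samples). With Per3 it had r = 0.48 (0.41 without 2 samples, 0.26 within samples 1 to 18 and 0.39 within samples 19 to 40).

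Compared with the pre-injury samples, 0 of the 10 genes passed at 4 h (0% of all features) and 0 at 24 h (0%). At an unadjusted p under 0.05 in edgeR there were 2 of the 10 at 4 h, Per3 and Arntl, against 11.3% of all features, and 1 at 24 h, Tef, against 3.84%. Leaving out single samples moved these counts to 1 to 4 and 0 to 2, and other settings moved the first to 1 to 4. DESeq2 called 43 features at 4 h and 0 at 24 h, and 0 of the 10 genes at both. Per3 (ENSMUSG00000028957, chr4:151003652-151044665), a paralog of Per1 and Per2, ranged from 50.2 to 101 CPM at 4 h (median 70.0, n = 8) and from 40.3 to 69.7 CPM before injury (median 58.9, n = 10). The groups overlapped, and the difference was 0.37 on the log2 scale (0.12 to 0.62, unadjusted p = 0.00496, adjusted p = 0.312 in edgeR). Arntl, the activator, ranged from 24.6 to 35.1 CPM at 4 h and from 29.5 to 39.9 CPM before injury, a difference of -0.22 (-0.41 to -0.02, unadjusted p = 0.0290, adjusted p = 0.422 in edgeR). Nr1d1 was at -0.18 (SE 0.09, adjusted p = 0.446 in edgeR) and Per1 at -0.31 (-0.67 to 0.04, adjusted p = 0.484 in edgeR), and Tef at 24 h was at 0.16 (0.02 to 0.29, adjusted p = 0.990 in edgeR). Its unadjusted p was above 0.05 when any of the samples 11, 21, 25, 26, 35 or 38 was left out.

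The sample numbers were spread unevenly over the times: numbers 1 to 18 held 6 of the 8 samples at 4 h, 6 of 9 at 30 min, 5 of 12 at 24 h and 1 of 10 before injury. This division of the numbers is not a batch that the labels name. Mean log2 CPM of Per3 was 6.15 in samples 1 to 18 and 5.85 in samples 19 to 40, a gap of 0.30, and the gap was 0.17 for Dbp and -0.17 for Arntl. With a term for the division, the Per3 difference of 4 h from pre-injury was 0.19 (unadjusted p = 0.143, adjusted p = 0.933 in edgeR) and that of Arntl was -0.11 (adjusted p = 0.933 in edgeR). That of Per1 was -0.46 (unadjusted p = 0.0228, adjusted p = 0.931 in edgeR) against -0.31 without the term. The Per1 difference of 4 h from 30 min was -0.55 with the term, -0.68 within samples 1 to 18 and -0.21 within samples 19 to 40, where 2 samples stood against 3. The Per2 difference was -0.49 and -0.48 within the divisions. For Per3 the direction did not hold, with 0.24 within samples 1 to 18 and -0.28 within samples 19 to 40. For Dbp the values were 0.18 and -0.30.

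Sham-injured mice, which the labels place at time 0, and mice 24 h after 1 to 5 injuries were compared in a single test of any difference. In it, 0 of the 10 genes passed (0% of all features), and 1 of the 10, Tef, had an unadjusted p under 0.05 in edgeR (adjusted p = 0.984), against 4.58% of all features. The count was 0 when 5xCHI sample 11, 12 or 33 or 2xCHI sample 21 was left out. Sample 11, with the highest Tef, also had the lowest neuronal sum (4494 CPM) and the highest microglial (608 CPM) and glucocorticoid-responsive (1474 CPM) sums of the 39 samples. DESeq2 called 8 features and 0 of the 10 genes. Tef means were 339 ± 29.3 CPM (SD, n = 4) in sham-injured mice, 341 ± 43.8 (n = 4) after 1xCHI, 338 ± 26.9 (n = 3) after 2xCHI, 380 ± 50.03 (n = 4) after 3xCHI, 346 ± 21.9 (n = 3) after 4xCHI and 424 ± 45.8 (n = 4) after 5xCHI. After 5xCHI the samples were 478, 431, 422 and 366 CPM, and the lowest of them lay within the ranges after 1xCHI, 2xCHI, 3xCHI and 4xCHI. The sham-injured samples ranged from 295 to 358 CPM.

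Samples of the same group differed from each other in these genes. The SD within groups was 0.39 on the log2 scale for Per1 and for Per2 and 0.37 for Ciart, against a median of 0.21 over all features, and it exceeded that of 98.4%, 96.6% and 90.02% of the features nearest to them in mean level. It was 0.27 for Dbp (86.4%) and for Per3 (86.0%), 0.20 for Arntl (69.5%) and Cry1 (58.3%), 0.19 for Nr1d1 (59.9%), 0.17 for Nr1d2 (54.3%) and 0.16 for Tef (46.9%). The sham-injured mice show the form of this variation. In sample 35, Dbp was 55.7, Per3 40.3 and Ciart 7.52 CPM with Arntl at 39.9 CPM, while in sample 6 Dbp was 105, Per3 69.7 and Ciart 14.4 CPM with Arntl at 29.8 CPM. The other sham-injured samples stood at 97.9 and 83.5 CPM of Dbp with 29.7 and 39.2 CPM of Arntl. Among the mice 24 h after 1xCHI, sample 17 had 136 CPM of Dbp, 18.7 of Ciart and 26.1 of Arntl, and sample 28 had 78.1, 9.11 and 39.3 CPM. After 5xCHI at 24 h, Arntl was lowest of all samples in sample 11 (21.8 CPM), which had the highest Per3 of its group (83.0 CPM) together with the lowest Per2 of all samples (18.4 CPM).

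Over the 39 samples Arntl was opposed to a set of the other genes in log2 CPM. Its r was -0.73 with Per3, -0.64 with Dbp, -0.53 with Tef and -0.47 with Ciart. With group means removed these were -0.76, -0.64, -0.61 and -0.55. Without the 2 samples farthest from the median they were -0.72, -0.60, -0.43 and -0.36. Within samples 1 to 18 and 19 to 40 the values were -0.63 and -0.69 for Per3, -0.63 and -0.55 for Dbp, -0.56 and -0.55 for Tef, but -0.03 and -0.66 for Ciart. With Nr1d1, Nr1d2, Per1 and Per2, Arntl had r from -0.04 to 0.13, but the pooled values for Per1, Per2 and Nr1d1 held opposite ones. Within samples 1 to 18 and 19 to 40, r with Per1 was 0.59 and -0.39, with Per2 0.65 and -0.47, with Nr1d1 0.20 and -0.16 and with Nr1d2 -0.06 and -0.48. Of the 36 pairs among the other 9 genes, 34 had r above 0 over all samples. Within samples 1 to 18, 14 of the 36 had r below 0 (Dbp and Per1 -0.55, Per2 and Per3 -0.48, Tef and Per2 -0.46), and within samples 19 to 40, 0 did. Per1 and Per2 had r = 0.75 (0.73 and 0.77 within the divisions), Nr1d1 and Nr1d2 had r = 0.67 (0.24 and 0.72), Per1 and Ciart had r = 0.65, and Dbp and Ciart had r = 0.56. These are descriptions, since the samples share the tissue block, the sequencing and the scaling.

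**Figure D4:**
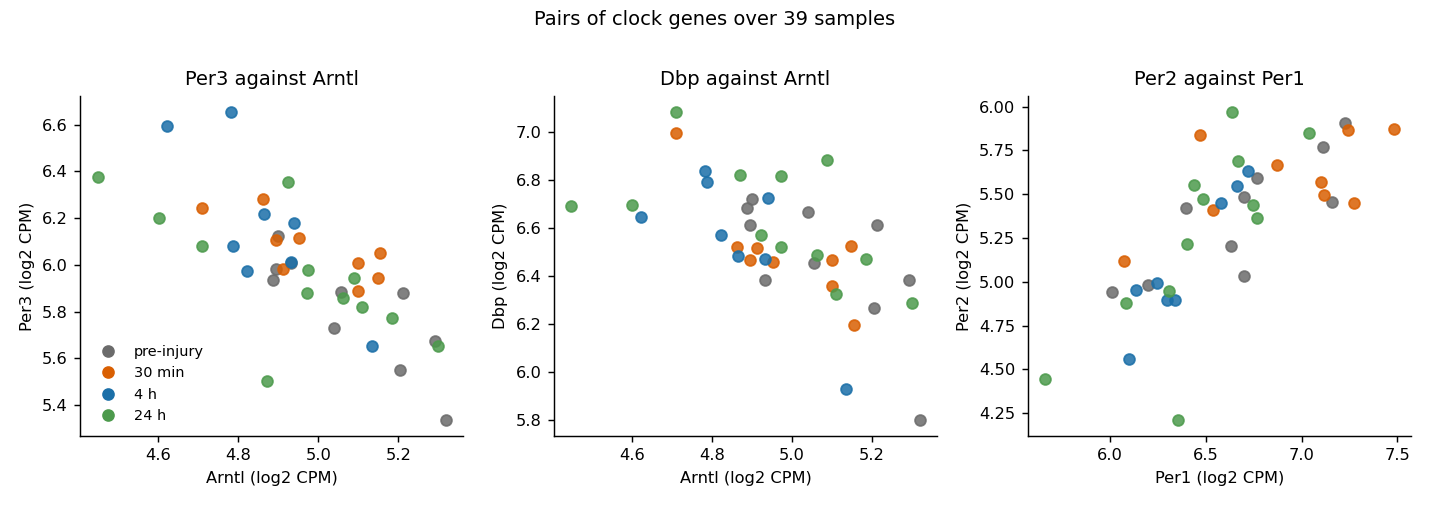
Log2 CPM of Per3 against Arntl, of Dbp against Arntl and of Per2 against Per1 in 39 samples, coloured by time after injury. Per3 and Dbp are lower where Arntl is higher (r = -0.73 and -0.64), with each time after injury spread along the slope, and Per1 and Per2 are high together (r = 0.75).

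Cell type markers moved with part of this opposition. The summed level of 5 neuronal markers (Snap25, Syt1, Rbfox3, Slc17a7 and Gad1, all detected) had r = 0.64 with Arntl (0.67 within groups) and r = -0.61 with Per3, against r = -0.28 with Dbp and -0.14 with Ciart. Without the 2 samples farthest from the median sum these were 0.45 for Arntl and -0.50 for Per3, and within samples 1 to 18 and 19 to 40 they were 0.65 and 0.45 for Arntl and -0.63 and -0.13 for Per3. The sum ranged from 6126 to 7293 CPM before injury, from 6157 to 7195 CPM at 30 min, from 4894 to 6657 CPM at 4 h and from 4494 to 7101 CPM at 24 h. The lowest sum belonged to sample 11, the sample with the least Arntl, whereas samples 35 and 6 of the sham-injured mice, which differ in Dbp and Arntl, had 6768 and 6430 CPM. Of the other lists, blood markers (86.2 to 514 CPM) had r = -0.54 with Tef (-0.43 without 2 samples, -0.56 within groups). Microglial markers (196 to 608 CPM) had r = 0.52 with Tef (0.30 without 2 samples, 0.29 within groups). Oligodendrocyte markers (3162 to 7074 CPM) had r = -0.50 with Nr1d1 (-0.34 without 2 samples). Astrocyte markers (2106 to 4255 CPM) had r = 0.48 with Nr1d2 (0.34 without 2 samples) and -0.46 with Dbp (-0.52). Summed endothelial markers ranged from 93.7 to 217 CPM, meningeal from 44.1 to 358 CPM and choroid plexus from 2.08 to 2464 CPM. All 5 markers of each list had enough reads to test except choroid plexus (2 of 5), and 0 of the tested markers passed in edgeR in the comparisons between times. The part of cell makeup in these values was not tested.

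**Figure D5:**
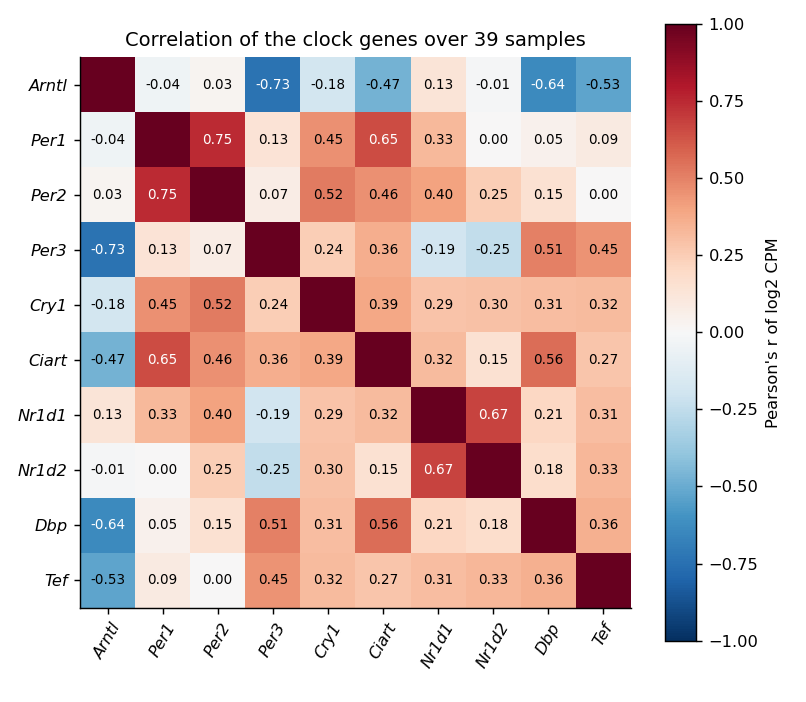
Pearson's r of log2 CPM for each pair of the 10 clock genes over 39 samples, on a colour scale from -1 to 1. 7 of the 9 Arntl pairs are below 0, down to -0.73 with Per3, and the Per1 and Per2 pair holds the highest value at 0.75.

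A list of 20 further clock genes, made up of the partners, kinases, ubiquitin ligases and output genes of the same loops, was also examined, and all 20 had enough reads to test. In the comparison of 4 h with 30 min and 24 h, 0 of 20 passed in either direction in edgeR, and 5 of 20 had differences above 0 with a list median of -0.05, against 0.0019 over all features. The 5 with the smallest unadjusted p were Bhlhe40 at -0.38 (adjusted p = 1.00 in edgeR), a repressor that activity also induces, Cry2 at -0.15, the Cry1 paralog, Noct at 0.12, which encodes nocturnin, Csnk1e at -0.14, a kinase of the PER proteins, and Timeless at -0.11, and the first 4 had an unadjusted p under 0.05, as did 3.18% of all features. Bhlhe40 had r = 0.72 with Per1 over the 39 samples. Its paralog Bhlhe41 had r = 0.69 with Dbp and -0.70 with Arntl. Npas2, which can take the place of CLOCK, had r = -0.52 with Dbp and 0.54 with Arntl, and Clock itself -0.51 and 0.50. Of genes on neither list, those with the highest r with Dbp were Trim7 (0.65), Top1mt (0.63), AC163221.1 (0.63), Prrt4 (0.63) and 2410002F23Rik (0.62). For Arntl they were Stard8 (0.75), Dmtn, Cx3cl1, Lsm11 and Calb1 (0.74 to 0.75), with r between 0.61 and 0.79 for all 5 within samples 1 to 18 and within samples 19 to 40.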

How the data were processed

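RNA of 40 samples was sequenced, and the authors deposited a table of estimated counts per gene made by a sequencing company; 4.46% of values were not whole numbers. The labels name the build mm10; the aligner, its version and strandedness are not given in the sources used here. The counts were rounded, sample 30 was left out, and a feature was dropped where over 4 samples had under 10 counts. edgeR 4.0.16 (R 4.3.3) fitted 1 mean per group with TMM scaling, and contrasts were tested by the quasi-likelihood test, two-sided, with Benjamini-Hochberg adjustment over 15224 features. The fit was tested on simulated data. Log2 CPM used a prior count of 1, and levels per length used GENCODE M21 exons. Alternatives included DESeq2 1.42.0, other filters and scaling, terms for sample number and leaving out each sample. The 10 genes are named in full; of 20 other clock genes the 5 with the smallest p were named, and of all others the 5 with the highest r with Dbp and with Arntl. The genes and lists were chosen with earlier results of these data known. Per the study's methods the samples came from separate mice, so p-values measure the spread between mice. The smallest chi-square per feature among 46 pairs of samples within groups was 6.85, so no pair was counted as 1 sample.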

Additional observations from a re-analysis of the deposited data

Results flagged for a closer look

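Tef in the sham-injured sample 35 was 295 CPM, and the nearest sham-injured sample was 351 CPM, a gap of 0.889 of the whole range of the group. It was 1 such value among 40 groups of 4 samples tested, and chance flags about 1 in 20. Sample 30, a 3xCHI sample at 4 h that was left out of the comparisons except where all 40 samples are named, had values above the highest sham-injured sample for 3 of the 10 genes, and 20.9% of 15214 features did. These were Tef at 383 CPM against 357 CPM, Nr1d2 at 170 CPM against 159 CPM and Ciart at 16.5 CPM against 15.2 CPM. It lay below the lowest sham-injured sample for 3 others (19.6% of features): Nr1d1 at 102 CPM against 109 CPM, Per1 at 81.0 CPM against 84.7 CPM and Per2 at 27.8 CPM against 36.6 CPM. For sample 30 the filter and scaling were run over all 40 samples, so the sham-injured values here differ slightly from those over 39 samples.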

How the results depend on the processing

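The count of clock genes passing the adjusted threshold was 0 in all 292 recounts, and 33 of 1454 recomputed differences changed sign. No paired analysis was possible because the groups share no replicate numbers. Apart from leaving out samples, these signs changed: Dbp at 4 h against 30 min and 24 h became -0.0016 without a filter, -0.044 with a term for samples 1 to 18 against 19 to 40 and -0.040 with sample number as a covariate, Nr1d2 became 0.00069 with the term, Nr1d1 at 4 h against 30 min 0.0048 without TMM, and Per2 within 3xCHI -0.16 with all 40 samples. Leaving out 1 sample gave -0.0501 to 0.083 for Dbp in the first comparison, -0.057 to 0.028 for Nr1d1, -0.0304 to 0.0697 for Nr1d2 and -0.0017 to 0.082 for Tef at 4 h against 30 min, -0.098 to 0.017 for Cry1 and -0.12 to 0.012 for Dbp at 4 h against 24 h, -0.014 to 0.068 for Arntl at 30 min against 24 h, and -0.13 to 0.011 for Per1 within 3xCHI. The lowest adjusted p of Per1 in edgeR was 0.174 at 4 h against 30 min and 0.0689 at 30 min against 24 h, both without 1xCHI 30 min sample 27, and that of Per3 against pre-injury was 0.0898 without 1xCHI 4 h sample 36. Counts over all features moved more. At 4 h against 30 min, 1 became 24 (DESeq2), 16 (no filter), 2 (10 counts in every sample), 15 (all 40 samples), 2 (the term), 5 (9 groups only) and 0 to 30 leaving out 1 sample (30 without sample 27). At 30 min against 24 h, 22 became 52 (DESeq2), 9 (sample number) and 4 to 192 (without samples 8 and 27). Against pre-injury at 4 h, 0 became 43 (DESeq2), 22 (no filter), 1 (10 counts in every sample), 2 (the term) and 0 to 15 (15 without sample 36). For 4 h against 30 min and 24 h, 0 became 1 (DESeq2) and 0 to 3 (3 without sample 11), and for 4 h against 24 h, 1 became up to 4 (without sample 11). The difference between injury numbers went from 0 to 2 (DESeq2), the test over sham-injured and 24 h samples from 0 to 8 (DESeq2), 5 (no filter) and 2 (without sample 33), 1xCHI from 0 to 16 (DESeq2), 4 (no filter) and 0 to 45 (45 without sample 36), and 5xCHI from 0 to 2 (DESeq2). The cause was not tested.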
